A study of Mus musculus with 23 samples.

Results

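The cortex of mice that carry an expanded human C9orf72 transgene (line F112, 3 libraries) was set against the cortex of mice that carry a human C9orf72 transgene without the expansion (line F08, 4 libraries). These are 7 of the 23 libraries of the series. The 4 nontransgenic (NTg) cortex libraries were used for the spread of the fit and as a level beside some results. A difference given without an NTg level does not say which line differs from NTg. Members were all genes of the cortex table that averaged 0.5 RPKM or more across its 11 libraries, which left 13842 of 20016 after 26 names that had turned into dates were dropped (Jpx, at a mean of 0.4998 RPKM, was just outside and Nckap5, at 0.5004, just inside). RPKM is a read density scaled to gene length and to the alignments of the library.

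All mice were C57BL/6 and 6 months old. The transgenes were bacterial artificial chromosomes (BACs) of human C9orf72, which every F112 and every F08 mouse carries, while NTg mice carry none. Each transgene is represented by 1 line, so the repeat expansion and the line it sits in cannot be told apart. The labels do not give sex, and the mouse numbers show that the libraries of a line came from different animals. Total RNA came from frozen tissue, and the labels name Ion Torrent library protocols for brain but Illumina ones for cord. The lumbar spinal cord of the same lines had 4 F112, 4 F08 and 4 NTg libraries and served for comparison.

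C9orf72 takes part in a protein complex with Smcr8 and Wdr41 that acts in autophagy and lysosome biology. Expansion of a hexanucleotide repeat in an intron of the human gene is a cause of amyotrophic lateral sclerosis (ALS) and frontotemporal dementia (FTD). The repeat RNA can gather in nuclear foci that bind splicing proteins, and its translation gives dipeptide repeat proteins that have been tied to nuclear transport. Cortex RNA also reports on the cells of the piece dissected, which include neurons, astrocytes, microglia and the oligodendrocytes that wrap axons in myelin.

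The promoter of mouse C9orf72 is shown because this gene had the smallest p among genes higher in F112. It lies on chromosome 4 (RefSeq, GRCm38.p6, chr4:35225787-35226086, minus strand, around the start that RefSeq gives, which lies inside the GENCODE span of the gene), and capitals mark GC boxes (GGGCGG or CCGCCC, either strand), of which 5 were found. Such a match stood in 35.7% of the 32851 promoters of the same length.
C9orf72: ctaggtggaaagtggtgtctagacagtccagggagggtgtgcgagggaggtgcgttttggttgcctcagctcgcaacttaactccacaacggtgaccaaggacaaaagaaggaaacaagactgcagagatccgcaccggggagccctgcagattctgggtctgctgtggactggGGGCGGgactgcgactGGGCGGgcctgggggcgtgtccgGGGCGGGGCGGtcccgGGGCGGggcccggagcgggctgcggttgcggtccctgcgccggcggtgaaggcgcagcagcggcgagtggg
Among 21 of the 29 measured myelin genes with a promoter in the same table, 10 held a SOX-type match in any promoter (ACAATG or ACAAAG, either strand, capitals below). Of all single promoters 28.6% held a match. That share is counted per promoter and not per gene, so it is no like measure and no excess is claimed. Sox10, which belongs to the factors that read such letters, is described with the myelin genes. The promoters of Mobp (chr9:120149492-120149791, plus strand), with 6 matches, and Gjc3 (chr5:137963049-137963348, minus strand), with 0, show both cases.
Mobp: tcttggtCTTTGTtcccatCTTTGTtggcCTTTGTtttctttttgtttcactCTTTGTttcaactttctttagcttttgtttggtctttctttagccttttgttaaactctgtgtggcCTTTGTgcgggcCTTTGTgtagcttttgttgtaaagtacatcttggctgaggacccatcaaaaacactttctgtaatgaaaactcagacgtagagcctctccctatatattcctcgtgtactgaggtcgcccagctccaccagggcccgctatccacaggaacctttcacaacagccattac
Gjc3: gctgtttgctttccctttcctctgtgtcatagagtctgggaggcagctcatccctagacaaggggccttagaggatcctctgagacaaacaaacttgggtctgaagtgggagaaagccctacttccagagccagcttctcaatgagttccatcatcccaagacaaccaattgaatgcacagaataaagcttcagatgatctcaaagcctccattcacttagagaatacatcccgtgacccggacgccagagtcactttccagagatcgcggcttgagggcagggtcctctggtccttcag

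Alignments per library were 9857850 to 13115500 in F112 and 9398450 to 14715900 in F08. Across genes, Pearson's r was 0.966 to 0.974 between F112 libraries, 0.951 to 0.979 between F08 libraries and 0.949 to 0.983 between a library of F112 and one of F08, where genes are not independent replicates. Xist, the RNA of the silent X chromosome, was at 31.4, 33.0 and 0.352 RPKM in F112 and at 36.5, 24.8, 0.495 and 0.0711 RPKM in F08. Ddx3y, a gene of the Y chromosome, was at 0.0239, 0 and 4.70 RPKM in F112 and at 0, 0, 5.16 and 4.45 RPKM in F08. Xist class thus followed sex, and the mix of sexes differed between the lines. The Xist-high libraries (F112 mice 6316 and 6317, F08 mice 6318 and 6319) were also those with the fewest alignments of their line, so Xist class and depth cannot be told apart here. The Xist-low libraries were F112 mouse 6324 alone, against F08 mice 6320 and 6321. All Xist-low values below therefore rest on that F112 library.

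**Figure D1:**
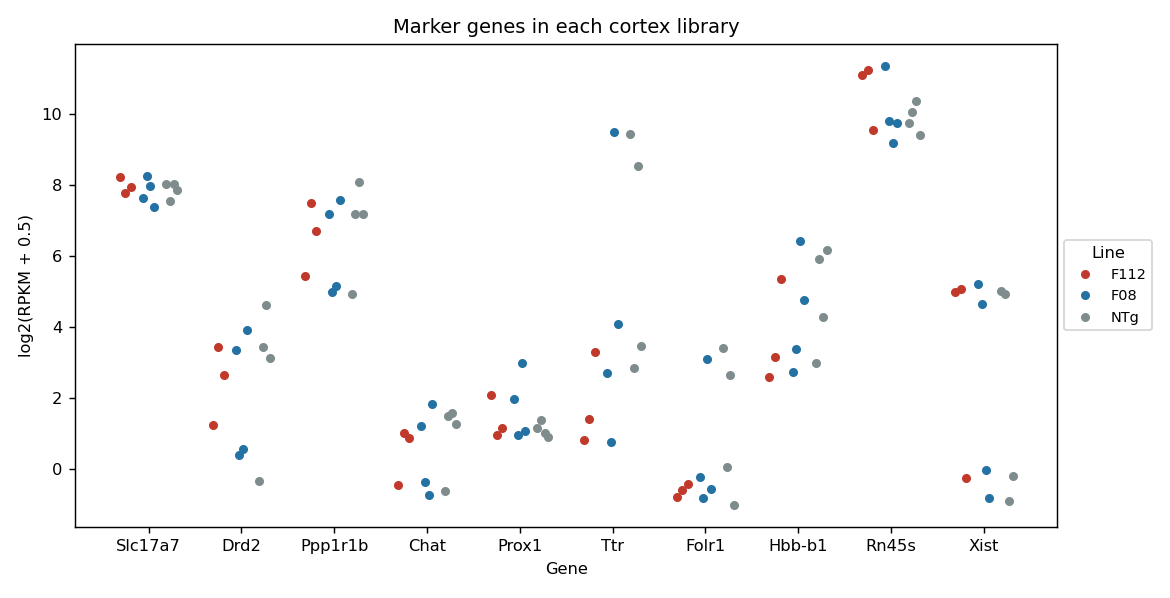
Log2(RPKM + 0.5) of 10 marker genes in each cortex library, with F112 (3), F08 (4) and NTg (4) from left to right within each gene and 1 point per library. Slc17a7 is similar in all libraries, while Drd2, Ppp1r1b, Ttr, Hbb-b1, Rn45s and Xist differ widely between libraries of 1 line.

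The cortex label was checked against a defining marker. Slc17a7, the vesicular glutamate transporter of cortical projection neurons, was at 299, 220 and 248 RPKM in F112 and at 201, 305, 253 and 166 RPKM in F08, against 0.0536 to 0.990 RPKM in F112 spinal cord and 0.323 to 1.16 RPKM in F08 spinal cord. It was thus high in every cortex library, with overlapping ranges of the lines.

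Markers of neighbouring structures varied between libraries of the same line. Drd2, the dopamine D2 receptor of striatal neurons, was at 1.86, 10.4 and 5.76 RPKM in F112 and at 9.89, 0.822, 0.998 and 14.8 RPKM in F08. Ttr, the transthyretin of choroid plexus, was at 1.27, 2.18 and 9.35 RPKM in F112 and at 6.03, 1.203, 725 and 16.6 RPKM in F08, so F08 mouse 6320 stood apart. Rn45s, the ribosomal RNA precursor, was at 2203, 2455 and 748 RPKM in F112 and at 2640, 893, 587 and 862 RPKM in F08.

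By limma, 0 of 13842 genes (0%) passed a Benjamini-Hochberg adjusted p under 0.05 between F112 and F08, and the smallest adjusted p was 1. At an unadjusted p under 0.05, 129 genes were higher in F112 (0.932%) and 212 lower (1.53%), which is 341 together where 692 would fall there if no gene differed. Every F112 library lay above every F08 library for 210 genes (1.52%) and below every one for 284 (2.05%). The log2 fold change was below 0 for 7787 genes (56.3%), with a median over all genes of -0.02 and 5th and 95th percentiles of -0.32 and 0.25. With quantile normalization 191 genes were higher and 199 lower at that p, and 48.8% were below 0. Without F08 mouse 6320 these were 184, 152 and 49.5%. The median standard error (SE) of a log2 fold change was 0.155, against 0.0558 in spinal cord. All log2 fold changes are F112 minus F08 on the log2(RPKM + 0.5) scale, which understates changes of low genes. No gene passed the adjusted threshold in cortex and lists were not tested, so values are given as levels and differences with their errors.

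Mouse C9orf72, listed as 3110043O21Rik (chromosome 4, 35191285 to 35226175, minus strand, protein coding, GENCODE M21, GRCm38), was at 10.2, 9.54 and 10.7 RPKM in the F112 cortex libraries, against 6.98, 5.51, 6.54 and 7.44 RPKM in F08 and 3.05, 4.20, 3.44 and 3.05 RPKM in NTg. All F112 libraries were above all F08 libraries, and all F08 libraries were above all NTg libraries. The log2 fold change of F112 over F08 was 0.58 (SE 0.129, 1.499-fold, 95% confidence interval 0.30 to 0.86, unadjusted p = 0.000707 and adjusted p = 1 by limma). The exact two-sided permutation test on the absolute difference of mean log2 values, over 35 arrangements, gave p = 0.0286, the smallest it allows, and 0.229 adjusted over 16 genes. Against NTg the log2 fold change was 1.44 in F112 and 0.86 in F08, 2 comparisons that share the NTg libraries.

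In spinal cord the same gene was at 12.8, 11.8, 13.4 and 12.5 RPKM in F112, 11.6, 11.9, 12.1 and 11.6 RPKM in F08 and 11.8 to 12.1 RPKM in NTg, so the 3 groups overlapped. The spinal cord log2 fold change of F112 over F08 was 0.09 (SE 0.0383, adjusted p = 0.445 by limma, exact permutation p = 0.0857). The cortex difference exceeded the spinal cord difference by 0.49 on the log2 scale (SE 0.124, unadjusted p = 0.000713 and adjusted p = 1 by limma). The fit of this difference pooled the spread of both tissues, whose median SEs were 0.155 in cortex and 0.0558 in spinal cord. It also took the libraries of a mouse as independent. Its SE here is below the 0.129 of cortex alone, so errors and p-values of this and later tissue differences may be too small. Because brain and cord libraries were made by different platform protocols, tissue and platform cannot be told apart in this or any later tissue difference. The sources used here do not say if transgene reads could fall on the mouse gene, and their part in these levels was not tested.

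Partners of C9orf72 were at like levels in both lines. Smcr8 was at 6.45, 6.58 and 6.39 RPKM in F112 and at 6.78, 6.31, 6.53 and 6.36 RPKM in F08. Wdr41 was at 8.15, 7.23 and 7.97 RPKM in F112 and at 7.47, 8.30, 8.47 and 9.36 RPKM in F08. Of 18 measured genes of the complex and its partners, 9 had a log2 fold change above 0 and 9 below, and the median was 0.00. At an unadjusted p under 0.05, 1 of them was higher (0.932% of all genes), which was C9orf72 itself, and 0 were lower (1.53% of all genes).

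**Figure D2:**
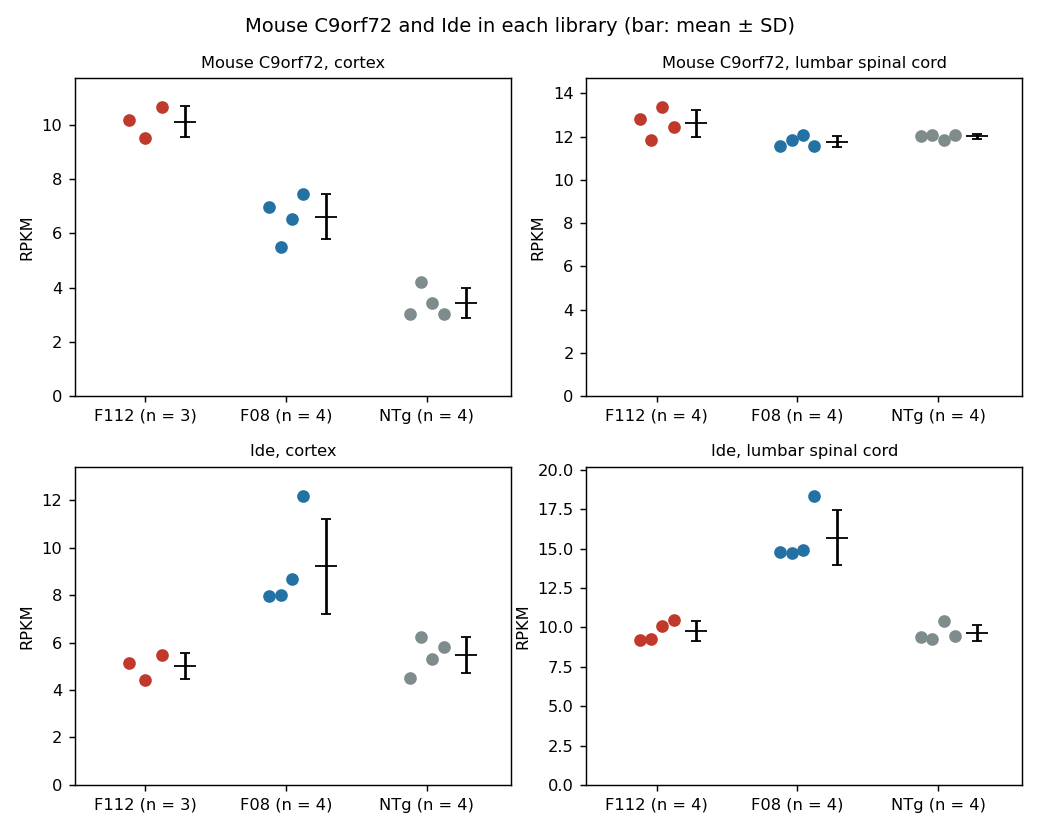
RPKM of mouse C9orf72 (top) and Ide (bottom) in cortex (left) and lumbar spinal cord (right), 1 point per library, with the mean ± SD of each line as bars. C9orf72 separates the 3 groups in cortex but not in spinal cord, and Ide is highest in F08 in both tissues.

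Ide, the insulin-degrading enzyme that also cleaves amyloid-beta, was the gene with the smallest p in cortex. It was at 5.15, 4.40 and 5.46 RPKM in F112, against 7.97, 8.01, 8.69 and 12.2 RPKM in F08. The NTg libraries were at 4.49, 6.24, 5.32 and 5.83 RPKM. Every F112 library was below every F08 library, whereas F112 and NTg overlapped. The log2 fold change of F112 over F08 was -0.80 (SE 0.156, unadjusted p = 0.000252, adjusted p = 1 by limma, exact permutation p = 0.0286). Without F08 mouse 6321, which had 12.2 RPKM, it was -0.67.

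Ide passed the threshold in spinal cord, where 3 of 13816 genes were called (0.0217%), all of them lower in F112. There Ide was at 9.23, 9.24, 10.1 and 10.5 RPKM in F112, against 14.8, 14.7, 14.9 and 18.4 RPKM in F08. NTg cords had 9.30 to 10.4 RPKM of Ide, and the F112 over F08 difference was -0.66 on the log2 scale (SE 0.0667, adjusted p = 0.00105 by limma). The difference between the tissues in this fold change was -0.15 (unadjusted p = 0.391, adjusted p = 1), which leaves its size in cortex and spinal cord within the error.

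The other 2 genes called in spinal cord lie near Ide on chromosome 19, and the stretch within 1 Mb of the Ide start was described after these values were seen. Ide spans 37268743 to 37337852 on the minus strand, Btaf1 36926079 to 37012752 on the plus strand and Fgfbp3 36917550 to 36919615 on the minus strand. Btaf1, which encodes an ATPase that removes TATA-binding protein from DNA, was at 3.33, 3.35, 3.82 and 3.64 RPKM in F112 spinal cord, against 4.72, 4.73, 4.69 and 5.81 RPKM in F08 (log2 fold change -0.44, adjusted p = 0.0431 by limma). Fgfbp3, a fibroblast growth factor binding protein, was at 1.28, 1.38, 1.08 and 1.03 RPKM in F112 spinal cord, against 2.02, 1.91, 1.98 and 2.63 RPKM in F08 (log2 fold change -0.63, adjusted p = 0.0358 by limma). For all 3 genes the highest library was F08 mouse 6321, and no F112 library overlapped an F08 library. Only the Ide call held whenever 1 F112 or F08 cord library was left out. Btaf1 lost its call each time, and Fgfbp3 kept it only without F112 mouse 6317.

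In cortex Btaf1 was at 2.49, 2.69 and 3.46 RPKM in F112, against 3.32, 3.63, 3.89 and 4.46 RPKM in F08, so 1 F112 library reached into the F08 range (log2 fold change -0.36, SE 0.130, unadjusted p = 0.0174). Again F08 mouse 6321 was the highest. Fgfbp3 did not share this pattern in cortex, at 2.40, 1.76 and 1.55 RPKM in F112 and 1.35, 1.17, 2.05 and 2.13 RPKM in F08 (log2 fold change 0.16, SE 0.193). The difference between tissues for Fgfbp3 was 0.79 (unadjusted p = 0.00092, adjusted p = 1 by limma).

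Between Btaf1 and Ide lies Cpeb3, a regulator of translation at synapses, at 8.36, 6.94 and 8.74 RPKM in F112 cortex, against 9.04, 8.73, 9.27 and 10.1 RPKM in F08 (log2 fold change -0.21, SE 0.123). The spinal cord value of Cpeb3 was -0.09 (SE 0.0395), with all F112 libraries below all F08 libraries. Over the 13 measured cortex genes of this stretch 7 were below 0, against 56.3% of all genes. At an unadjusted p under 0.05, 2 of them (Ide and Btaf1) were lower, against 1.53% of all genes. For 1 (Ide) every F112 library lay below every F08 library, against 2.05% of all genes. Ide is in these counts because the stretch was chosen around it. Tnks2, on the far side of Fgfbp3, had 0.02 in cortex and -0.01 in spinal cord, and Exoc6, on the other side of Ide, 0.02 and -0.02. The median over the stretch was -0.02 in cortex, beside -0.02 over all genes.

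**Figure D3:**
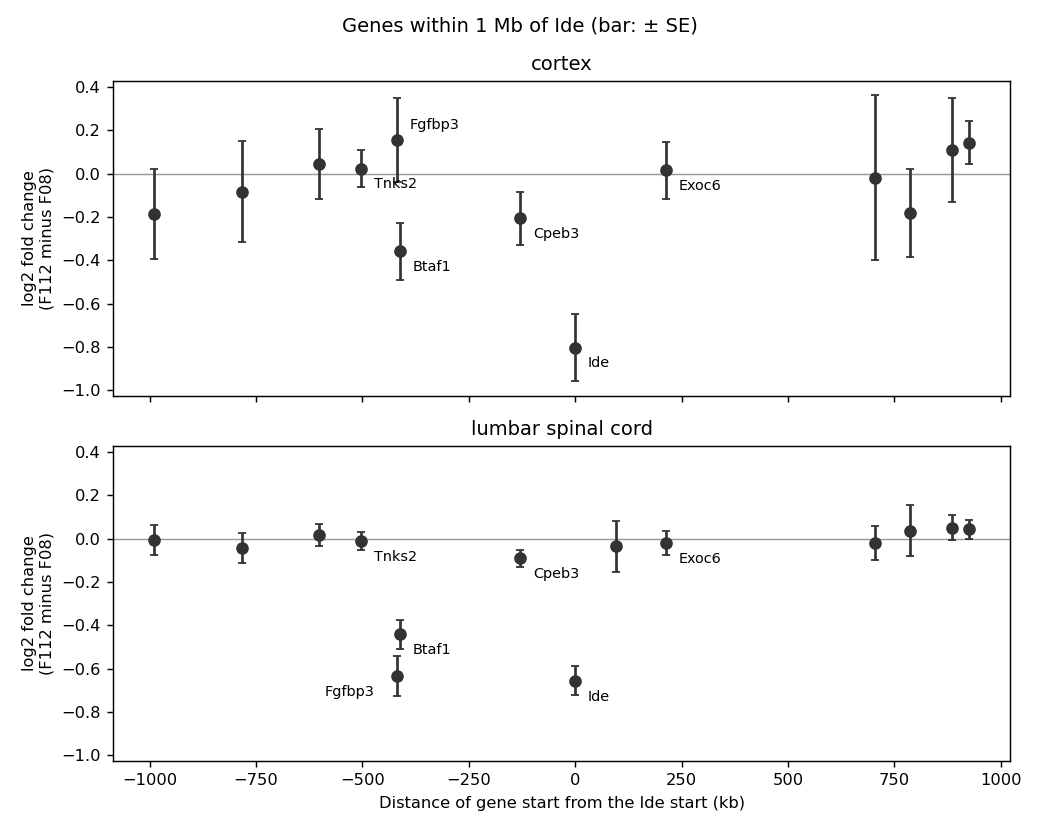
Log2 fold change (F112 minus F08, ± SE) of the genes whose start lies within 1000 kb of the Ide start, in cortex (13 genes) and lumbar spinal cord (14 genes). Ide and Btaf1 are below 0 in both tissues and Fgfbp3 in spinal cord, while most of the others lie near 0.

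The genes with the lowest p-values were of several kinds, and those higher in F112 are given before those lower. Lypd1, a modulator of nicotinic acetylcholine receptors, was at 25.8, 36.4 and 61.9 RPKM in F112, against 20.1, 24.1, 22.3 and 20.98 RPKM in F08. All 3 F112 libraries were above F08, and mouse 6324 carried much of the difference (log2 fold change 0.82, SE 0.234, and 0.48 without it). Plxnd1, a semaphorin receptor, was at 11.9, 15.3 and 20.2 RPKM in F112, against 10.8, 9.34, 7.99 and 11.8 RPKM in F08 (log2 fold change 0.62, SE 0.187). The NTg libraries, at 11.7 to 17.1 RPKM, overlapped F112.

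Gm7120, whose present symbol is Tmem267, was at 12.0, 11.5 and 9.65 RPKM in F112, against 7.50, 5.90, 8.40 and 6.74 RPKM in F08 (log2 fold change 0.60, SE 0.169). Its spinal cord difference was 0.54, with F112 at 17.4, 14.9, 8.47 and 7.35 RPKM and F08 at 6.99 to 7.97 RPKM, so it rested there on F112 mice 6316 and 6317. Magee2, a gene of the MAGE family on the X chromosome, was at 4.17, 3.91 and 4.21 RPKM in F112, against 2.20, 2.16, 2.83 and 3.09 RPKM in F08 (log2 fold change 0.59, SE 0.175). These 2 genes did not overlap between the lines in cortex.

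Small but tight differences were those of Adck2 (0.33, SE 0.0958), Uros, an enzyme of haem synthesis (0.35, SE 0.104), Man1a2, a Golgi mannosidase (0.33, SE 0.106), and Dnal1, a dynein light chain (0.24, SE 0.0788). Pdzrn3 and Rasgef1c had 0.50 and 0.48, and 2900055J20Rik 0.60. Cryga, a lens crystallin, was low throughout at 1.08, 1.04 and 1.61 RPKM in F112, against 0.579, 0.637, 0.479 and 0.647 RPKM in F08 (log2 fold change 0.67, SE 0.181). In spinal cord, Gm7120 apart, the measured genes of this group had log2 fold changes of -0.22 (Plxnd1) to 0.04 (Dnal1), and Cryga was under the filter.

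Of the genes lower in F112, Pfkfb3, which makes the activator of the glycolytic enzyme phosphofructokinase, was at 5.68, 4.68 and 5.72 RPKM in F112, against 7.83, 8.13, 7.02 and 7.66 RPKM in F08 (log2 fold change -0.48, SE 0.123). Its spinal cord difference was 0.00, and the difference between tissues was -0.48 (unadjusted p = 0.000541, adjusted p = 1 by limma). Tmem128 was at 6.96, 6.49 and 7.16 RPKM in F112, against 8.32, 9.75, 8.75 and 8.73 RPKM in F08 (log2 fold change -0.35, SE 0.0935), with 0.07 in spinal cord. For both genes the F112 libraries lay below all F08 libraries. Across cortex and spinal cord, 0 of 13078 genes passed for a difference between the tissues (0%), and 523 had an unadjusted p under 0.05.

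Tmem98, a membrane protein that binds the myelin regulator Myrf, was at 4.95, 2.603 and 4.69 RPKM in F112, against 7.59, 5.91, 7.40 and 5.49 RPKM in F08 (log2 fold change -0.66, SE 0.184, and -0.40 without F112 mouse 6317). Cntn2, an adhesion molecule of myelinated axons, was at 14.7, 11.4 and 13.4 RPKM in F112, against 17.4, 16.0, 18.3 and 17.1 RPKM in F08 (log2 fold change -0.38, SE 0.116). Both F112 ranges lay below F08, and both overlapped NTg. Tmem107, a protein of the ciliary transition zone, had -0.66 (SE 0.187), Cdk2ap2 -0.37 (SE 0.106), Fam53b -0.60 (SE 0.179), Nmral1 -0.60 (SE 0.180) and Lmf1, a lipase maturation factor, -0.38 (SE 0.114).

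Low genes need their depth beside them. Scx, the tendon transcription factor scleraxis, was at 0.391, 0.469 and 0.509 RPKM in F112, against 1.57, 1.55, 0.842 and 1.12 RPKM in F08 (log2 fold change -0.87, SE 0.204), and Nmbr, the neuromedin B receptor, at 0.284, 1.00 and 1.06 RPKM in F112, against 1.72, 2.25, 4.08 and 3.46 RPKM in F08 (log2 fold change -1.41, SE 0.408). Neither gene overlapped between the lines. Pisd-ps1 is a pseudogene that shares sequence with other Pisd copies, so its reads may be split among them. It was at 27.3, 42.5 and 39.8 RPKM in F112, against 55.0, 54.9, 50.6 and 51.4 RPKM in F08 (log2 fold change -0.55, and -0.36 without F112 mouse 6316), and the spinal cord difference was -0.52.

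Snora33, a small nucleolar RNA within Rps12 (chr10:23785347-23785475, minus strand, GENCODE M21), was listed at 0 in all 3 F112 libraries and at 1.13, 0.933, 1.40 and 2.27 RPKM in F08. Scaled by the alignments of each library, these F08 values were 1.02, 1.00, 1.99 and 3.03 times the smallest, as if 1, 1, 2 and 3 reads stood behind them. On that reading the F08 libraries held 7 reads in all and the F112 libraries 0, while NTg libraries held 3. Its sequence is shown because a gene this short can take a high rank from few reads.
Snora33: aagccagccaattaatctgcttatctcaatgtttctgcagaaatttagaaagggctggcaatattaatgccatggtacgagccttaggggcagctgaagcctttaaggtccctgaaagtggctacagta

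Genes of myelin and mature oligodendrocytes were lower in F112 than in F08 as a group. Of 30 listed genes 29 were measured above the filter, and all 29 had a log2 fold change below 0, against 56.3% of all genes. Their median was -0.47, against -0.02 over all genes. At an unadjusted p under 0.05, 7 were lower (Cldn11, Gjb1, Gjc3, Mag, Myrf, Trf and Tspan2), against 1.53% of all genes, and 0 higher. For 3 (Gjc3, Mag and Myrf) every F112 library lay below every F08 library, against 2.05% of all genes, and 0 passed the adjusted threshold. In tissue RNA, the number of oligodendrocytes, the myelin RNA per cell and the make-up of the piece dissected cannot be told apart. The contrast alone does not say which line differs from NTg, and the list median against NTg was -0.07 in F112 and 0.41 in F08. Both of these include NTg mouse 6322, which was low for this list, as given below.

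Mbp, a main protein of compact myelin, was at 790, 503 and 647 RPKM in F112, against 1028, 681, 1109 and 916 RPKM in F08 and 401, 782, 808 and 805 RPKM in NTg (log2 fold change of F112 over F08 -0.53, SE 0.258). For Mbp, F08 mouse 6319 lay within the F112 range. Mog, a protein of the outer myelin surface, had -0.56 (SE 0.263), and Mobp, whose promoter is shown above, was at 60.5, 40.9 and 49.2 RPKM in F112, against 84.9, 57.8, 81.6 and 71.0 RPKM in F08 (log2 fold change -0.55, SE 0.266).

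Myrf, the transcription factor that drives myelin genes, was at 5.76, 3.75 and 5.76 RPKM in F112, against 7.36, 5.86, 9.76 and 7.85 RPKM in F08 (log2 fold change -0.56, SE 0.210). Mag, an adhesion protein between myelin and axon, was at 52.2, 36.3 and 40.4 RPKM in F112, against 68.6, 53.5, 71.97 and 57.6 RPKM in F08 (log2 fold change -0.55, SE 0.232). Gjc3, a connexin of oligodendrocytes, was at 6.92, 4.25 and 7.03 RPKM in F112, against 8.51, 7.24, 9.72 and 8.90 RPKM in F08 (log2 fold change -0.49, SE 0.195). These 3 did not overlap, and F08 mouse 6319 was the F08 library nearest to F112 for each. Without F112 mouse 6317, the lowest F112 library for all 3, Gjc3 had -0.28 and Myrf -0.37.

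Cldn11, the tight junction protein of myelin, had -0.48 (SE 0.210), Gjb1, a connexin, -0.59 (SE 0.260), Trf, the iron carrier transferrin that oligodendrocytes make, -0.41 (SE 0.181), Tspan2 -0.41 (SE 0.179) and Cnp -0.39 (SE 0.202). Without F112 mouse 6317, Cldn11 had -0.32, Tspan2 -0.23 and Mog -0.35. Enpp2 had -0.82 (SE 0.604) and is also a gene of choroid plexus. It was at 109 RPKM in the Ttr-rich F08 mouse 6320, against 24.6 to 27.5 RPKM in the other F08 libraries, and its log2 fold change was -0.31 without that mouse.

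**Figure D4:**
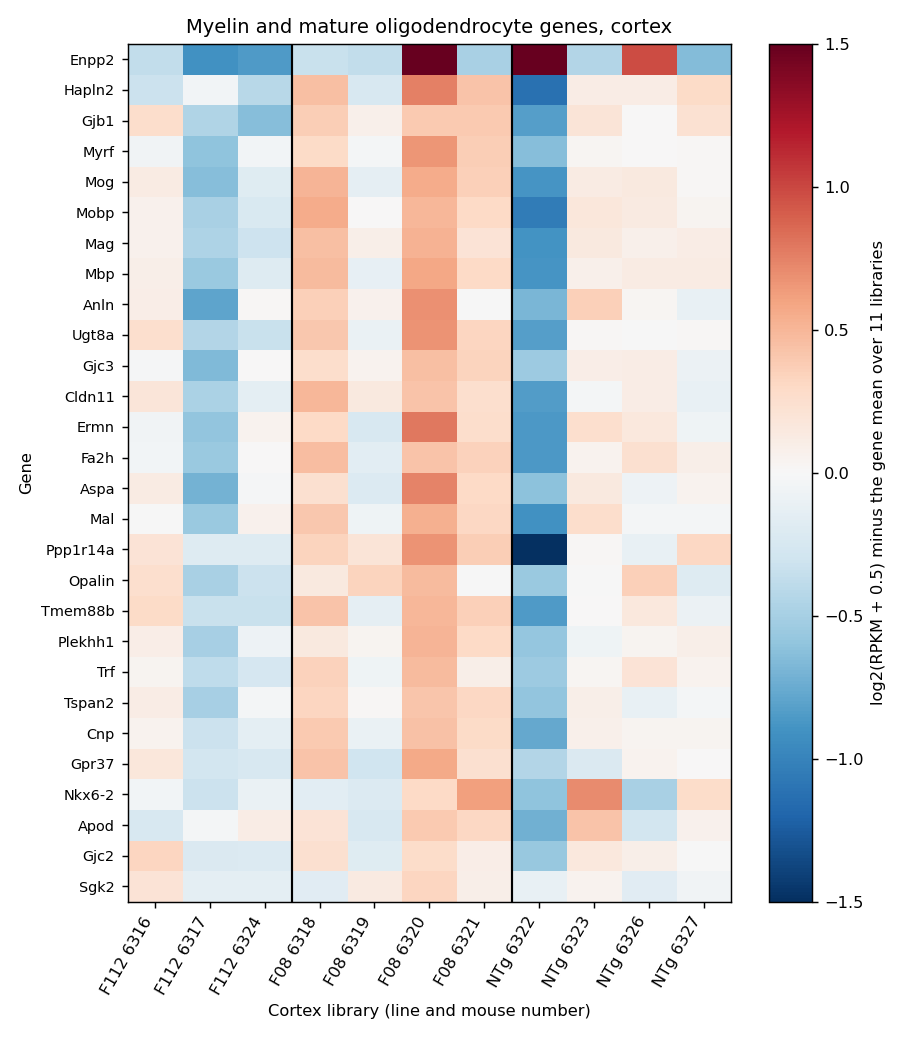
Log2(RPKM + 0.5) of 28 of the 29 measured myelin and mature oligodendrocyte genes minus each gene's mean over 11 cortex libraries, with F112, F08 and NTg libraries from left to right and genes ordered by the F112 minus F08 difference. Of the 7 F112 and F08 libraries, F112 mouse 6317 is the lowest and F08 mouse 6320 the highest for most genes, and over all 11 NTg mouse 6322 is most often the lowest.

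Summed myelin RPKM was 1518, 1025 and 1299 in F112, against 1942, 1369, 2209 and 1766 in F08 and 909.8, 1558, 1582 and 1527 in NTg. F08 mouse 6319 overlapped F112. Against NTg the list median was -0.07 in F112 and 0.41 in F08, in comparisons that share the NTg libraries. NTg mouse 6322 lay low, with a median deviation from the gene means of -0.77, against 0.09, 0.06 and 0.02 in mice 6323, 6326 and 6327. These deviations were 0.09, -0.48 and -0.15 in F112 and 0.35, -0.06, 0.51 and 0.30 in F08. The medians against NTg thus lean on mouse 6322 and were not computed without it. The median of F112 minus F08 was -0.30 without F112 mouse 6317, the lowest of its line, and -0.36 without the 3 Ttr-rich libraries (F08 mouse 6320, NTg mice 6322 and 6326), and all 29 genes stayed below 0 in both cases. Within the Xist-high libraries it was -0.32, with 27 of 29 below 0, and within the Xist-low libraries -0.54, with 29 of 29. The Xist-low value rests on F112 mouse 6324 alone, and the genes of this list are not independent. In spinal cord, which is far richer in myelin (Mbp at 4794 to 5117 RPKM in F112 and 4983 to 5331 RPKM in F08), 19 of 30 were below 0 with a median of -0.05.

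Genes of oligodendrocyte precursors and the lineage had smaller differences, with 14 of 16 below 0 (56.3% of all genes), a median of -0.11 and 3 lower at an unadjusted p under 0.05 (1.53% of all genes). Sox10, the transcription factor of the whole lineage, was at 11.3, 8.96 and 10.7 RPKM in F112, against 13.6, 12.1, 14.5 and 13.8 RPKM in F08 and 6.397 to 10.3 RPKM in NTg (log2 fold change of F112 over F08 -0.38, SE 0.151). No F112 library overlapped F08. The same held in spinal cord, at 35.3, 35.7, 32.9 and 38.0 RPKM in F112, against 42.4, 45.1, 42.9 and 43.1 RPKM in F08 (log2 fold change -0.29, SE 0.0606, adjusted p = 0.213 by limma). Bcas1, a marker of newly myelinating cells, had -0.53 in cortex and -0.02 in spinal cord, and Nkx2-2, a factor of early lineage cells, -0.41 and -0.26. Pdgfra, the receptor that defines precursors, was at 5.59, 5.61 and 8.91 RPKM in F112 and at 5.52, 5.26, 5.98 and 7.49 RPKM in F08, which overlap.

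Other glial and vascular lists lay near the median of all genes. Astrocyte genes had 7 of 18 below 0 (median 0.03), microglia genes 11 of 23 (median 0.01) and endothelial and mural genes 13 of 21 (median -0.06). Gfap, which rises in reactive astrocytes, was at 44.1, 45.8 and 55.7 RPKM in F112 and at 39.1, 39.4, 75.1 and 50.1 RPKM in F08. Aif1, a microglial marker, was at 1.90, 2.07 and 1.51 RPKM in F112 and at 2.04, 2.46, 2.61 and 3.18 RPKM in F08 (exact permutation p = 0.0857, 0.343 adjusted over 16 genes). Both genes overlapped between the lines.

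**Figure D5:**
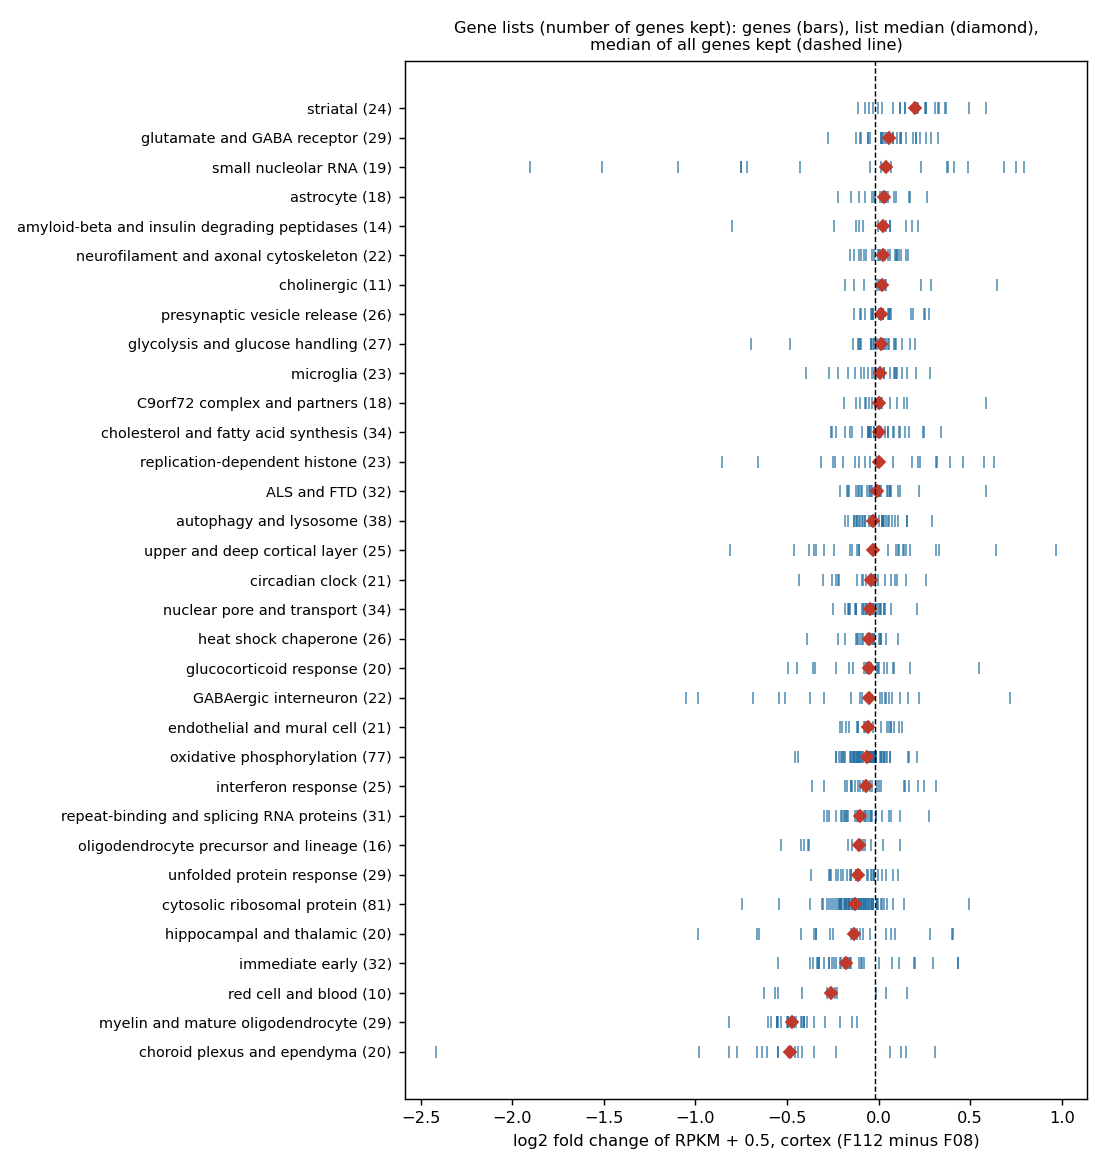
Log2 fold change (F112 minus F08, cortex) of each measured gene in 33 lists, 1 bar per gene, with the list median as a diamond and the median of all 13842 genes as a dashed line. The myelin list is the only one with every gene below 0, and the lists of neighbouring structures and blood spread widely.

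Lists of neighbouring structures varied with single libraries. Choroid plexus and ependyma genes had 16 of 20 below 0 with a median of -0.49, and 0.04 without F08 mouse 6320. Their summed RPKM was 43.6 to 66.8 in F112 and 44.8 to 914 in F08, and the defining Folr1 was at 0.0844 to 0.251 RPKM in F112 and 0.0744 to 8.11 RPKM in F08. Striatal genes had 5 of 24 below 0 with a median of 0.20, which was -0.20 without F112 mouse 6317 and 0.67 without F112 mouse 6316. Hippocampal and thalamic genes had 14 of 20 below 0 with a median of -0.14, and blood genes 8 of 10 with -0.26, and without F08 mouse 6320 these medians were 0.00 and 0.04. The part of these structures in the myelin difference was not tested, beyond the values given with and without the Ttr-rich libraries.

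Most neuronal lists had medians close to 0. Glutamate and GABA receptor genes had 7 of 29 below 0, fewer than the share over all genes, and a median of 0.06, which ranged from 0.05 to 0.09 when single libraries were left out. Gabrb1, a GABA-A receptor subunit, was at 8.36, 7.34 and 8.58 RPKM in F112, against 5.43, 6.37, 6.65 and 7.02 RPKM in F08 (log2 fold change 0.33, SE 0.115). Presynaptic release genes had 9 of 26 below 0 (median 0.01), and of these Cplx2, a regulator of vesicle fusion, was at 256, 243 and 258 RPKM in F112, against 222, 196, 205 and 225 RPKM in F08 (log2 fold change 0.25, SE 0.114). Both genes were higher in every F112 library. Neurofilament and axonal cytoskeleton genes had 9 of 22 below 0 (median 0.02), GABAergic interneuron genes 12 of 22 (median -0.05), cortical layer genes 13 of 25 (median -0.03, and 0.01 with quantile normalization) and cholinergic genes 4 of 11 (median 0.02). The cholinergic median moved with single libraries, to -0.26 without F08 mouse 6319 and 0.46 without F112 mouse 6316, and was -0.14 within the Xist-high and 0.41 within the Xist-low libraries.

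Immediate early genes, which neurons switch on with activity, had 24 of 32 below 0 (56.3% of all genes) with a median of -0.18. At an unadjusted p under 0.05, 1 was higher (0.932% of all genes) and 1 lower (1.53% of all genes). The median was 0.03 within the Xist-high libraries, -0.45 within the Xist-low libraries and -0.03 without F112 mouse 6324, the Xist-low library of its line. Per1, which is also a clock gene, was at 18.3, 17.6 and 17.6 RPKM in F112, against 19.7, 22.6, 20.4 and 21.7 RPKM in F08 (log2 fold change -0.23, SE 0.110). Egr4, a zinc finger factor, had -0.33 (SE 0.178), and neither gene overlapped. Clock genes had 15 of 21 below 0 (median -0.04), with Per2 at 6.11, 6.10 and 9.00 RPKM in F112, against 9.48, 10.9, 8.37 and 9.71 RPKM in F08 (log2 fold change -0.43, SE 0.188), and glucocorticoid response genes 13 of 20 (median -0.05).

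Stress pathways tied to repeat expansion held no gene past the adjusted threshold. Unfolded protein response genes had 25 of 29 below 0 (56.3% of all genes) with a median of -0.11. At an unadjusted p under 0.05 there were 0, against 0.932% of all genes higher and 1.53% lower. Hspa5, the main chaperone of the endoplasmic reticulum, was at 45.6, 53.2 and 71.4 RPKM in F112 and at 64.5, 62.7, 68.4 and 73.1 RPKM in F08, which overlap. Manf, a secreted stress protein, was at 9.72, 8.70 and 10.3 RPKM in F112, against 11.3, 11.6, 11.2 and 10.8 RPKM in F08 (log2 fold change -0.22, SE 0.128), and Eif2ak3, the stress kinase PERK, had -0.19 (SE 0.109), both without overlap. Within the Xist-low libraries the list had 16 of 29 below 0 with a median of -0.02. Heat shock genes had 21 of 26 below 0 (median -0.05), against 56.3% of all genes, and 16 of 26 within the Xist-low libraries (median -0.02). Interferon genes had 18 of 25 below 0 (median -0.07), with 8 of 25 (median 0.07) within the Xist-high and 20 of 25 (median -0.09) within the Xist-low libraries, and their median was 0.07 without F08 mouse 6320.

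Genes for repeat-binding and splicing proteins had 26 of 31 below 0 (56.3% of all genes) with a median of -0.10, 2 of them lower at an unadjusted p under 0.05 (1.53% of all genes). Hnrnpl, a splicing regulator, was at 36.5, 36.3 and 34.6 RPKM in F112, against 37.4, 41.7, 41.1 and 43.0 RPKM in F08 (log2 fold change -0.19, SE 0.0797). Srsf4, a serine-rich splicing factor, was at 11.2, 15.3 and 11.9 RPKM in F112 and at 16.6, 14.5, 14.9 and 16.8 RPKM in F08 (log2 fold change -0.30, SE 0.113). The first of these did not overlap and the second did. The list median was -0.02 without F112 mouse 6316 and -0.17 without F112 mouse 6324. Nuclear pore and transport genes had 26 of 34 below 0 (median -0.05).

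Genes named in ALS and FTD had 18 of 32 below 0 (56.3% of all genes) with a median of -0.01. The single member at an unadjusted p under 0.05 was C9orf72, which was higher, against 0.932% of all genes higher and 1.53% lower. Tardbp, whose protein TDP-43 collects in ALS neurons, was at 14.1, 15.3 and 17.9 RPKM in F112 and at 14.0, 15.4, 19.2 and 17.4 RPKM in F08. Sqstm1, the autophagy receptor p62, was at 138, 135 and 147 RPKM in F112 and at 142, 137, 146 and 148 RPKM in F08. The ranges overlap for both genes. Autophagy and lysosome genes had 22 of 38 below 0 (median -0.03).

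Cytosolic ribosomal protein genes had 74 of 81 below 0 (56.3% of all genes). Their median was -0.13, with -0.04 within the Xist-high and -0.24 within the Xist-low libraries. Rpl9, a protein of the large subunit, was at 32.3, 36.2 and 32.6 RPKM in F112, against 42.4, 39.2, 39.2 and 43.4 RPKM in F08 (log2 fold change -0.28, SE 0.108), with no overlap, and Rps27 had -0.54 (SE 0.248). Many ribosomal protein genes have near-identical pseudogene copies, so their counts may be split. Oxidative phosphorylation genes had 63 of 77 below 0 (median -0.06), against 56.3% of all genes. The count was 36 of 77 (median 0.015) within the Xist-high and 67 of 77 (median -0.20) within the Xist-low libraries. With the log2 level of Rn45s as a covariate the ribosomal median was -0.12 and the myelin median -0.45.

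The remaining lists had medians near 0 over all libraries. Glycolysis and glucose handling genes had 13 of 27 below 0 (median 0.01), with Eno1 the lowest at -0.70 and Pfkfb3 next. Of these, 1 (Pfkfb3) was lower at an unadjusted p under 0.05 by limma, against 1.53% of all genes. It was also the 1 gene lower without overlap, against 2.05% of all genes, so Eno1 overlapped between the lines. Amyloid-beta and insulin degrading peptidases had 6 of 14 below 0 (median 0.02), with Ide the lowest. Cholesterol and fatty acid synthesis genes had 17 of 34 below 0 (median 0.00), replication-dependent histones 12 of 23 (median 0.00) and small nucleolar RNAs 8 of 19 (median 0.04). The small nucleolar RNA median was -0.48 without F112 mouse 6324 and 0.40 without F08 mouse 6320, and the peptidase median -0.17 without F112 mouse 6324. With median-of-ratios scaling or quantile normalization the medians of the histone and the ALS and FTD lists were above 0, at 0.02 each or at 0.03 and 0.00.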

How the data were processed

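RNA sequencing values of cortex and lumbar spinal cord from 12 mice were used, 23 libraries in all. The authors deposited 1 table of RPKM values per tissue, with the number of alignments of each library. RPKM values are not counts, so they were fitted on a log scale. Per the submitters' processing notes, mm9, mm10, Partek and TopHat2 (2.0.8b) were used. Their roles, the assignment of reads and strandedness are not given in the sources used. Antisense and overlapping genes therefore cannot be told apart.

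Genes averaging 0.5 RPKM or more were kept, and log2(RPKM + 0.5) of the 11 cortex libraries was fitted with limma 3.58.1 in R 4.3.3 (3 genotypes, empirical Bayes with a mean-variance trend, two-sided, Benjamini-Hochberg adjusted over 13842 genes). Spinal cord was fitted apart (13816 genes), and the difference between tissues over 23 libraries. Single genes were tested by exact permutation over 35 arrangements in cortex and 70 in spinal cord. The code was tested on simulated data. Mouse numbers pair cortex with spinal cord libraries of 11 mice. Deviations from the group means correlated by 0.027 to 0.232 within a mouse.

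The members, the 33 gene lists and the alternatives were chosen with earlier results of these data known. Named genes were mouse C9orf72, the 10 genes per direction with the smallest p (again among genes of at least 5 RPKM), 15 landmarks, up to 4 per list with the smallest p in the direction of its median and 3 per direction for the tissue difference, of which part is given. Smcr8, Wdr41, Mobp, Mog, Cnp, Gjb1, Trf, Tspan2, Pdgfra, Drd2, Folr1, Enpp2, Eno1, Calb2, Sp8 and the genes near Ide were named after their values were seen. A few genes are not reported here. Positions came from GENCODE M21 (GRCm38), where 13699 of 13842 names matched 1 gene. Promoters came from RefSeq (GRCm38.p6). P-values by limma rest on the spread between libraries within a line, pooled over F112, F08 and NTg. That spread may hold differences between the pieces dissected as well as between animals. Precision is lowest for short genes of low RPKM, as the values of Snora33 show. Alternatives changed the scaling, pseudocount, filter, covariates and libraries.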

Additional observations from a re-analysis of the deposited data

Results flagged for a closer look

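In each group of 4 libraries, the gap between an extreme library and its nearest neighbour was compared with the whole range, over 210 groups of the genes named here, and 21 values stood apart. Chance flags about 1 in 20 groups where genes are independent and not picked by their values. Here some genes were named after their values were seen, and several flags share a library. No excess is therefore claimed.

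In F08 cortex, mouse 6320 stood apart with Ttr at 725 RPKM (others 1.203 to 16.6), Folr1 at 8.11 RPKM (0.0744 to 0.361) and Enpp2 at 109 RPKM (24.6 to 27.5), all 3 expressed in choroid plexus. Mouse 6318 had Rn45s at 2640 RPKM (587 to 893), mouse 6319 the lowest Gjb1 at 5.89 RPKM (7.30 to 7.45), and mouse 6321 the lowest Fam53b at 6.59 RPKM (8.90 to 9.21) and Bysl at 3.86 RPKM (4.32 to 4.38).

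In NTg cortex, mouse 6322 was lowest for Mag at 26.8 RPKM (others 52.7 to 55.5), Myrf at 3.64 RPKM (6.00 to 6.08), Mobp at 27.7 RPKM (59.6 to 65.1), Mbp at 401 RPKM (782 to 808), Cnp at 59.6 RPKM (105 to 108) and Sox10 at 6.397 RPKM (9.71 to 10.3). Mouse 6323 was highest for Gm7120 at 12.5 RPKM (7.67 to 8.24), Gabrb1 at 6.90 RPKM (5.48 to 5.69), Calb2 at 40.1 RPKM (4.47 to 8.03) and Sp8 at 1.99 RPKM (0.250 to 0.272).

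In spinal cord, F08 mouse 6321 was highest for Ide at 18.4 RPKM (others 14.7 to 14.9), Btaf1 at 5.81 RPKM (4.69 to 4.73) and Fgfbp3 at 2.63 RPKM (1.91 to 2.02). NTg mouse 6326 was highest for Ide at 10.4 RPKM (9.30 to 9.43).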

How the results depend on the processing

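The count of 0 genes called in cortex held in all 27 alternatives tried, including 11 that left out 1 cortex library each and 1 added after seeing the data (log2 Rn45s as a covariate). The C9orf72 difference kept its direction in all of them, at 0.51 to 0.64 over the leave-outs. The exact permutation tests, adjusted over 16 genes, could hardly pass in a design this small and bear on no stability. The 341 genes at an unadjusted p under 0.05 became 563 with no filter and 186 with a filter at 5 RPKM, where more or fewer genes were tested. The 494 genes without overlap became 265 with that filter, 3916 in Xist-high libraries only, 8693 in Xist-low libraries only and 938 without the 3 Ttr-rich libraries, and 494 to 1748 over leave-outs, since smaller groups overlap less. In spinal cord 1 to 4 genes were called over leave-outs, Ide in each. Btaf1 was called only with all libraries, and Fgfbp3 also without F112 mouse 6317. Pairing by mouse number as a block called 0 genes for the tissue difference, as did the fit without it.

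Of 65 other named genes, 3 turned in 1 setting, the Xist-low libraries only, with log2 fold changes of -0.34 for Fgfbp3, 0.12 for Homer1 and 0.0138 for Hspa5, and the cause was not tested. F112 is represented in that setting by mouse 6324 alone. The myelin median ranged from -0.58 to -0.30 over leave-outs. With median-of-ratios scaling the share of genes below 0 was 50.1%, with 29 of 29 myelin genes below 0. Depth limits low genes most.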

Other observations

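Homer1, a scaffold of the postsynapse, was at 14.0, 13.7 and 18.0 RPKM in F112 cortex, against 18.8, 20.99, 16.8 and 16.3 RPKM in F08 (log2 fold change -0.26, SE 0.117, unadjusted p = 0.048 and adjusted p = 1 by limma), and the lines overlapped. Bysl, a factor of small ribosomal subunit assembly, was at 5.35, 5.14 and 4.85 RPKM in F112 cortex, against 4.32, 4.38, 4.32 and 3.86 RPKM in F08, and its cortex difference exceeded that of spinal cord by 0.38 on the log2 scale (unadjusted p = 0.000874, adjusted p = 1 by limma). Pou3f3os, a long noncoding RNA, went the other way, with a difference between tissues of -0.58 (unadjusted p = 0.000845, adjusted p = 1 by limma). Hba-a2, a haemoglobin gene of blood, was at 169, 115 and 163 RPKM in F112 cortex and at 153, 242, 268 and 217 RPKM in F08, which overlap. Calb2 and Sp8, markers of a class of interneurons, were at 4.89, 34.0 and 18.7 RPKM and at 0.446, 2.95 and 0.240 RPKM in F112 cortex, with Calb2 at 24.98 to 35.5 RPKM and Sp8 at 1.86 to 2.56 RPKM in F08.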
